A study of Mus musculus with 22 samples.

Results

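The 9 genes described here encode subunits of the receptors that sense glutamate at synapses of hippocampal pyramidal neurons: Gria1, Gria2 and Gria3 (AMPA receptors), Grin1, Grin2a and Grin2b (NMDA receptors), Grm5 (a metabotropic receptor), and Grik4 and Grik5 (kainate receptors). They were chosen by symbol from 29848 genes with a row in the deposited tables, which hold 26 ionotropic, delta and metabotropic glutamate receptor genes in all. RNA bound to tagged ribosomes was measured in the CA1 field of mouse hippocampus, dissected into the layer of dendrites and the layer of cell bodies (soma). All groups came from Camk2a-tTA/tetO-EGFP-L10a double transgenics on a C57BL/6 background, and their age is not stated in the labels. In these mice the Camk2a promoter, active in excitatory neurons of the forebrain, switches on a GFP-tagged protein of the large ribosomal subunit, and the antibody HtzGFP-19C8 pulls tagged ribosomes down. The Camk2a promoter is not restricted to CA1, and axons of other tagged neurons enter the dendrite layer.

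There were 4 groups of immunoprecipitates with 2 libraries each: dendrites of fear conditioned mice, dendrites of home cage mice, soma of fear conditioned mice and soma of home cage mice. The 3 supernatants, the RNA left after the pull-down, were 1 of fear conditioned dendrites, 1 of home cage dendrites and 1 of fear conditioned soma. Each of the 11 libraries was run on the sequencer both paired-end and single-end, which gives 22 samples; the 2 runs of a library are 1 replicate here. Separate animals behind the libraries of a group are not stated, and a p-value then reflects the spread among these libraries, which may be technical.

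AMPA receptors are tetramers that carry most of the fast excitatory current, and the GluA2 subunit encoded by Gria2 keeps calcium out of the channel. NMDA receptors pair the obligatory GluN1 subunit, encoded by Grin1, with GluN2 subunits such as those of Grin2a and Grin2b. They pass calcium when glutamate and depolarisation coincide and are required for long-term potentiation in CA1. mGluR5, encoded by Grm5, couples through Gq to phospholipase C, and group I metabotropic receptors drive protein synthesis in dendrites and long-term depression. Kainate receptor subunits GluK4 and GluK5, of Grik4 and Grik5, form channels only with other kainate subunits. Grik4 is known from CA3 rather than CA1.

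The stretch that lines the pore is printed because it carries the codon that sets calcium passage or magnesium block and shows how alike these transcripts are. Each line is the sense strand of the GENCODE vM21 transcript, 30 bases long, 5′ to 3′, with that codon in capitals.
Gria1: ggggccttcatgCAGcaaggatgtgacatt
Gria2: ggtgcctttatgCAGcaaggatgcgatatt
Gria3: ggtgcttttatgCAGcaaggatgtgatatt
Grin1: ggcgtcctgctcAACtctggcattggggaa
Grin2a: ggcctggtcttcAACaattctgtgcccgtc
The codon is CAG in all 3 AMPA subunits, as the genome writes it; in Gria2 messenger RNA it is known to be edited, which the deposited values do not show. Gria2 and Gria3 differ at 2 of these 30 bases, Gria1 and either of them at 4, and Grin1 and Grin2a at 17. Outside such stretches the coding sequences are distinct. Gria1, Gria3, Grin1, Grin2a, Grin2b and Grm5 shared 0.0% of their 30-base windows with another receptor gene, Gria2 shared 0.457%, Grik4 0.211% and Grik5 0.515%.

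In mm9, the build of the deposited annotation, Gria1 lies at chr11:56825193-57143746 on the plus strand, Gria2 at chr3:80488858-80606713 on the minus strand and Gria3 at chrX:38754031-39031778 on the plus strand. Grin1 lies at chr2:25146697-25174683, Grin2a at chr16:9577803-9992626 and Grin2b at chr6:135679823-136123529, all on the minus strand. Grm5 lies at chr7:94732678-95283573 on the plus strand, Grik4 at chr9:42328495-42752454 and Grik5 at chr7:25794870-25857388, both on the minus strand. Values are FPKM, fragments per kilobase of transcript and per M mapped, for the coding part, which is the 5′ UTR with the coding sequence and the first stretch of the 3′ UTR, unless the rest of the 3′ UTR is named.

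The deposited FPKM correspond to an estimated 5.62 to 29.9 M fragments in paired-end immunoprecipitates and 24.5 to 35.5 M in supernatants. Single-end runs came to 0.525 to 4.37 M and 6.92 to 10.6 M reads. The home cage soma immunoprecipitate 2 stood apart: the ribosomal protein gene Rpsa took 74.0% of its summed FPKM. The fear conditioned dendrite immunoprecipitate 1 gave 26.9% to Mir135b. Summed scaled FPKM of 12 astrocyte markers were 96.4 to 260.0 in dendrite immunoprecipitates and 6.14 to 66.2 in soma immunoprecipitates, with no marker at 0 throughout either. The 10 CA1 pyramidal markers summed to 82.6 to 535.0 in dendrite and 17.6 to 111.0 in soma immunoprecipitates. Camk2a carried the dendrite sums. In soma other markers weighed as much in some libraries. As deposited, fear conditioned soma 2 had 103 FPKM of Neurod6 beside 109 of Camk2a. Home cage soma 1 had 16.7 FPKM of Itpka beside 14.8 of Camk2a. The 6 tested CA1 markers split into 3 positive and 3 negative differences, dendrite minus soma, with a median of -0.43 on the log2 scale. Camk2a differed by 2.92, Neurod6 by -2.82 and Itpka by -1.45, and none passed. Of 5 dentate granule markers, Dsp, C1ql2 and Tdo2 were at 0 in all 8 immunoprecipitates. The other markers were not: Prox1 had 2.81 FPKM in home cage dendrites 1 and 1.83 FPKM in fear conditioned dendrites 1. Its highest soma immunoprecipitate had 0.207 FPKM, and Plk5 reached 0.0321 FPKM in fear conditioned soma 2. The part of glial RNA in the receptor values was not tested. Fewer tagged cells and less RNA per cell cannot be told apart in such samples.

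**Figure D1:**
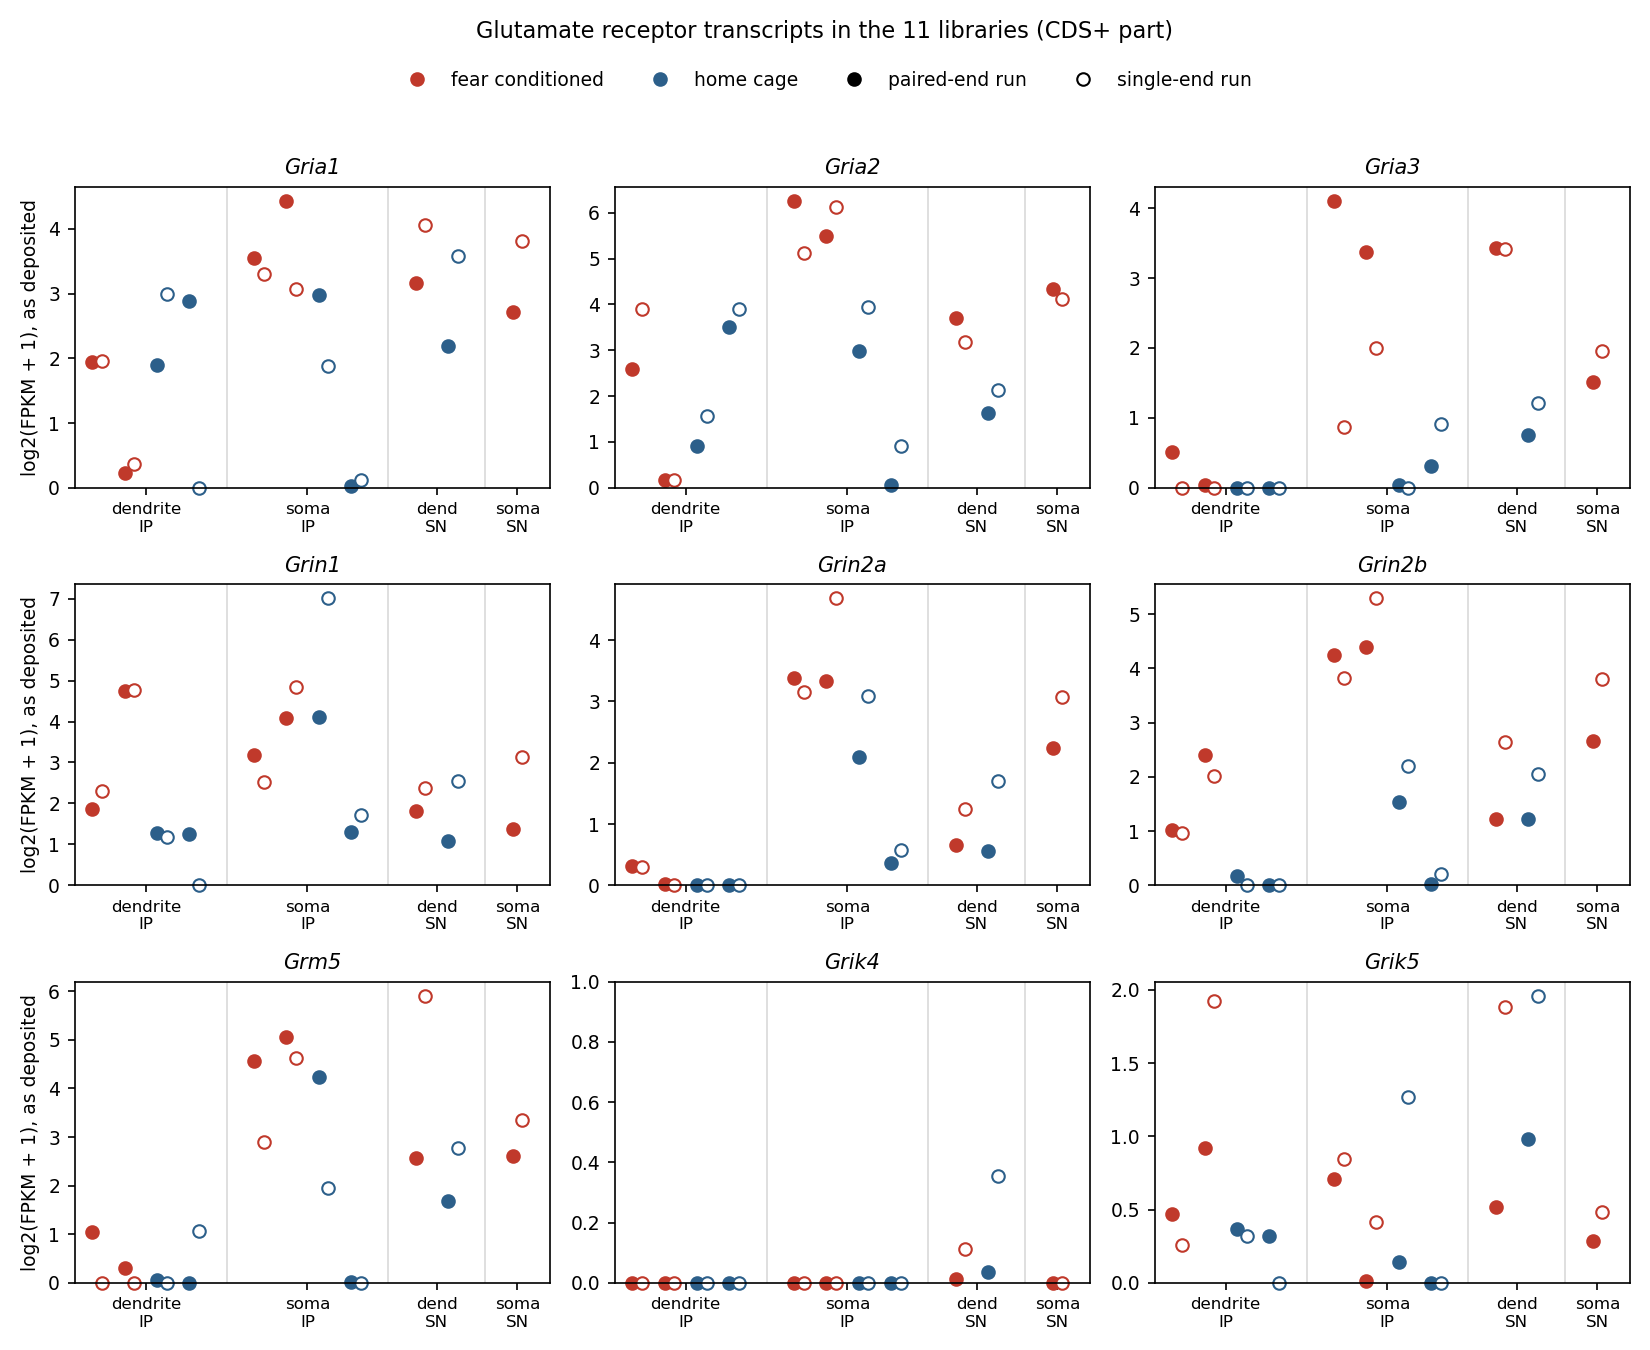
Deposited FPKM of the 9 genes on a log2(FPKM + 1) scale, 1 panel a gene with its own vertical scale, for dendrite immunoprecipitates (IP), soma IP, dendrite supernatants (SN) and the soma SN; filled points are paired-end and open points single-end runs. Grin2a is the gene whose dendrite IP all lie below all soma IP in both runs, and Grik4 is at or near 0 in every IP.

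As deposited, Gria2 had the highest paired-end median of the 9 genes in dendrite immunoprecipitates, soma immunoprecipitates and supernatants. In the single-end supernatants Gria1 and Grm5, with medians of 13 and 9.19 FPKM, were above Gria2 with 8.05 FPKM. By mean scaled FPKM in dendrite immunoprecipitates Grin1 came first with 4.39 and Gria2 second with 2.75. In dendrite immunoprecipitates the median paired-end FPKM was 2.93 for Gria2, 2.77 for Gria1, 2.01 for Grin1, 0.569 for Grin2b, 0.338 for Grik5, 0.139 for Grm5, 0.0115 for Gria3, 0.00632 for Grin2a and 0 for Grik4. In soma immunoprecipitates it was 25.4 for Gria2, 20.3 for Grm5, 12.1 for Grin1, 10 for Grin2b, 8.83 for Gria1, 6.18 for Grin2a, 4.79 for Gria3, 0.0549 for Grik5 and 0 for Grik4. In the 3 supernatants Gria2 had a median of 12 and Grin1 of 1.59. Neighbours in both immunoprecipitate orders overlapped in their ranges, and no pair of them was told apart by its spread. The rank of Grm5, second in soma and sixth in dendrites, was the widest shift between these paired-end orders.

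In the paired-end run Gria1, Gria2 and Grin1 were above 0 in every immunoprecipitate, at levels that differed widely between libraries of 1 group. Single-end, Grin1 was listed at 0 in 1 of 4 dendrite immunoprecipitates. Gria2 had 4.99 and 0.13 FPKM in fear conditioned dendrites and 0.879 and 10.3 FPKM in home cage dendrites, against 75.8 and 44.0 FPKM in fear conditioned soma and 6.87 and 0.0368 FPKM in home cage soma. The fear conditioned soma libraries were the highest, and both home cage soma libraries lay below the highest dendrite library as deposited. After scaling only home cage soma 2 did, with home cage soma 1 at 11.5 and the highest dendrite library at 8.55 scaled FPKM. Gria1, whose product GluA1 is the AMPA subunit inserted during potentiation, had 2.84 and 0.17 FPKM in fear conditioned dendrites and 2.71 and 6.38 FPKM in home cage dendrites. In soma, Gria1 had 10.7 and 20.6 FPKM after fear conditioning and 6.91 and 0.0207 FPKM in the home cage. In the paired-end run the Gria1 groups overlapped through home cage soma library 2 alone, which held an estimated 0.975 fragments of Gria1 and 1.73 of Gria2. Gria3, a subunit that pairs with GluA2, had 0.423 and 0.0229 FPKM in fear conditioned dendrites and was listed at 0 in the 2 home cage dendrite libraries, against 16.2 and 9.33 FPKM in fear conditioned soma and 0.0314 and 0.24 FPKM in home cage soma. On the paired-end coding part Gria3 was high only in the fear conditioned soma immunoprecipitates among the 8. Its single-end values there, 0.824 and 2.99 FPKM, were lower, next to 0.887 in the home cage soma library 2. In the single-end run of fear conditioned soma 2, a second row of the same locus, GluR alpha3, held 12.8 FPKM, which gives 15.8 FPKM for the locus. In the rest of the 3′ UTR, paired-end, Gria3 was high in home cage soma 1 too. It had 8.84 FPKM there, against 10.9 and 2.65 FPKM in fear conditioned soma.

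Dendrite levels of the AMPA subunits lay below soma levels without passing the test. The log2 difference, dendrite minus soma on log2(scaled FPKM + 1), was -1.23 ± 1.03 for Gria1, -2.14 ± 1.14 for Gria2 and -1.79 ± 0.74 for Gria3 (SE, 4 libraries a location), each with a limma adjusted p of 0.65. The pseudocount of 1 compresses low values: with 0.1 in its place the Gria3 difference was -3.75. Without the home cage soma library 2, Gria1 differed by -2.11 and Gria2 by -3 on the same scale, with limma adjusted p of 0.187 and 0.214.

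All 3 NMDA receptor subunits had negative estimates, dendrite minus soma, and none passed the test. Grin2a, whose product gives NMDA receptors fast kinetics and rises during development, had 0.248 and 0.0126 FPKM in fear conditioned dendrites and was at 0 in the 2 home cage dendrite libraries. In soma it had 9.4 and 9.07 FPKM after fear conditioning and 3.28 and 0.292 FPKM in the home cage. All dendrite values lay below all soma values, although the nearest pair, 0.248 and 0.292, almost met. Behind these stood an estimated 23.6, 1.06, 0 and 0 fragments in dendrites and 808, 1220, 200 and 19.0 in soma. The single-end runs had 0.228 FPKM, a value under 1e-08 and 2 values of 0 in dendrites, against 7.89, 24.7, 7.5 and 0.487 FPKM in soma, again with no overlap. Grin2a alone of the 9 genes had no overlap between dendrite and soma immunoprecipitates, in either run as deposited and in the paired-end run after scaling. Of all 2928 genes tested, 1.74% lay lower in dendrites with no overlap after scaling and 1.71% higher.

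The Grin2a difference was -2.32 ± 0.78 on the log2 scale (SE, limma adjusted p = 0.65), and -5.04 with a pseudocount of 0.1. Its exact two-sided permutation p over libraries was 0.0286, the smallest that 4 libraries against 4 can give, and is not adjusted for the number of genes. Full separation of the groups fixes that p, so it only restates the lack of overlap. Grin2a reached the minimum for testing, a mean scaled FPKM of 1, through soma alone. Leaving out 1 library at a time kept the Grin2a difference between -2.73 and -1.91. The uncharacterised transcript AK086290 overlaps the start of Grin2a on the same strand, so reads there cannot be told apart.

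Grin2b, whose product dominates early in development and binds CaMKII, had 1.02 and 4.27 FPKM in fear conditioned dendrites, against 18.1 and 20 FPKM in fear conditioned soma. In the home cage Grin2b had 0.122 FPKM and a listed 0 in dendrites, against 1.91 and 0.012 FPKM in soma. Fear conditioned libraries were thus higher than home cage libraries in dendrites, and in soma too, in both runs. Grin1, the obligatory subunit, had 2.61 and 25.7 FPKM in fear conditioned dendrites and 1.42 and 1.38 FPKM in home cage dendrites, against 8.05 and 16.1 FPKM in fear conditioned soma and 16.4 and 1.46 FPKM in home cage soma. The highest paired-end FPKM of Grin1 as deposited was in fear conditioned dendrite library 2, where it rested on an estimated 1540 fragments and the single-end run gave 26.3 FPKM. After scaling, the highest dendrite value was 14 and the highest soma value 27.5 scaled FPKM, and in the single-end run home cage soma 1 was the highest. Fear conditioned dendrite library 2 held only 7.89 fragments of Gria2 and 10.3 of Gria1. The dendrite library highest in Grin1 was thus the lowest in both of these AMPA subunits in the paired-end run. Dendrite minus soma, the log2 difference was -1.60 ± 1.08 for Grin1 and -1.81 ± 0.86 for Grin2b (SE, limma adjusted p = 0.65 for both), that of Grin2b -2.86 with a pseudocount of 0.1. The plus-strand transcripts AK076389 and Lrrc26 overlap Grin1, and the sources used here do not say whether the strand was used in counting.

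Grm5 had the largest difference of the 7 genes tested with a pseudocount of 1, and Grin2a with 0.1. Grm5 had 1.07 and 0.24 FPKM in fear conditioned dendrites and 0.0376 FPKM and a listed 0 in home cage dendrites, against 22.7 and 32.3 FPKM in fear conditioned soma and 17.9 and 0.0149 FPKM in home cage soma. All soma libraries but home cage 2 lay above every dendrite library. Home cage soma 2 held an estimated 0.973 fragments of Grm5, against 1960, 4360 and 1090 in the other soma libraries. The log2 difference was -3.19 ± 1.09 (SE, limma adjusted p = 0.65), and -4.93 with a pseudocount of 0.1. Without home cage soma 2 the Grm5 difference was -4.40 with a limma adjusted p of 0.0401, and 79 genes (2.7% of those tested) passed. In the single-end table, with all libraries, the Grm5 difference was -1.91.

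The kainate subunits were near the floor. Grik5, a high-affinity subunit, had 0.387 and 0.892 FPKM in fear conditioned dendrites and 0.288 and 0.248 FPKM in home cage dendrites, against 0.634 and 0.00908 FPKM in fear conditioned soma and 0.101 FPKM and a listed 0 in home cage soma. The ranges overlapped, and the order of the medians differed between runs, with 0.338 FPKM in dendrites against 0.0549 FPKM in soma paired-end, and 0.222 FPKM in dendrites against 0.564 FPKM in soma single-end. Grik4 was listed at 0 in 7 of 8 immunoprecipitates, with 2.84e-05 FPKM in fear conditioned soma 1, which is less than 1 fragment. Both were under the expression minimum, a mean scaled FPKM of 1, and were not tested. Exact permutation p-values for dendrites against soma were 0.343 for Grik5 and 1.0 for Grik4.

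**Figure D2:**
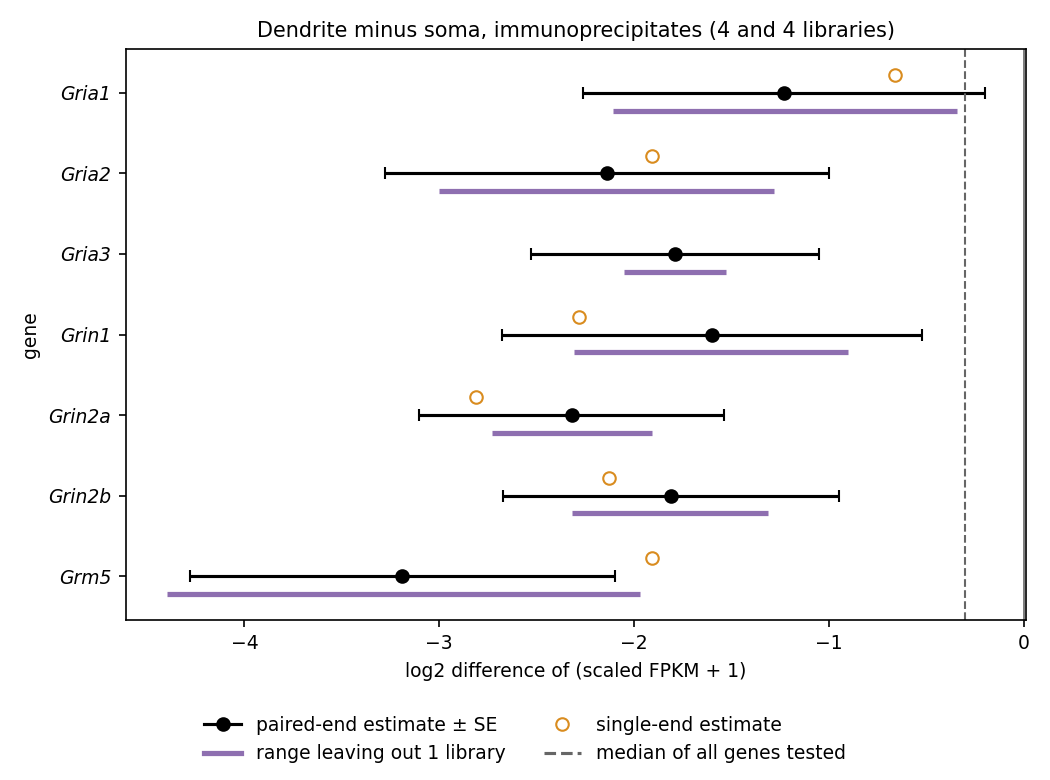
Log2 difference, dendrite minus soma immunoprecipitates, of log2(scaled FPKM + 1) for the 7 genes tested: black points with SE bars are the paired-end estimates, purple bars the range when 1 library is left out, open points the single-end estimates, and the dashed line the median of all genes tested. The estimates lie between -3.19 for Grm5 and -1.23 for Gria1, left of the median of -0.30.

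None of the 7 tested genes passed the threshold of 0.05 between dendrites and soma, and neither did any of the 2928 genes (0.0% higher and 0.0% lower). With robust moderation the count was also 0, and at an unadjusted limma p under 0.05 there were 55 higher and 84 lower genes (1.88% and 2.87%). The median difference of the 7 was -1.81, beside -0.30 over all genes tested, of which 57.4% were negative. Gria3, Grin2a, Grin2b and Grm5 averaged under the minimum in dendrites and passed it through soma alone, so their lower dendrite values are partly set by that minimum. Gria1, Gria2 and Grin1 passed it in both. Without scaling the median of all genes was 0.12 and every one of the 7 differences stayed negative, with Grin1 at -0.89.

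**Figure D3:**
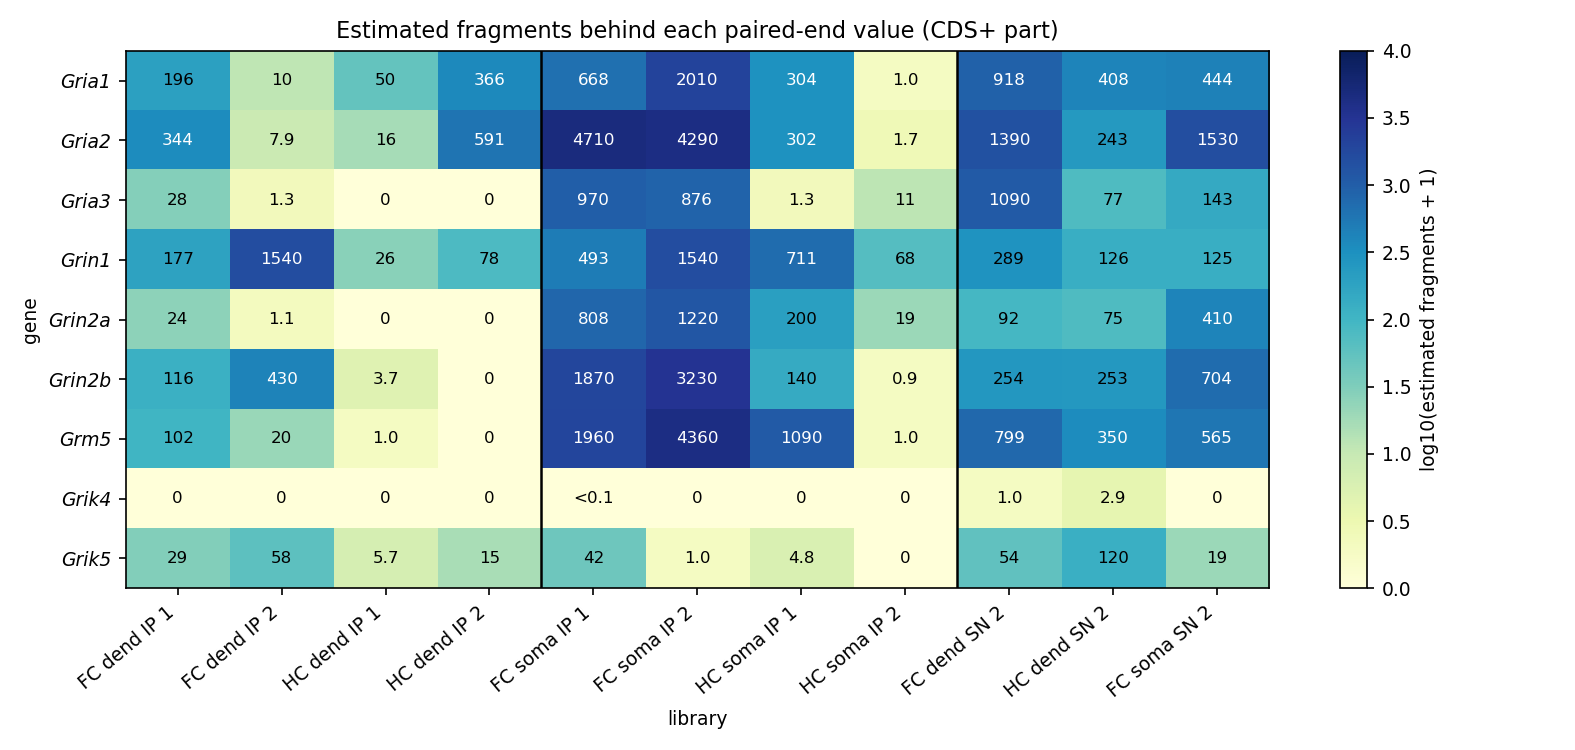
Estimated fragments behind each paired-end value of the 9 genes in the 11 libraries, printed in each cell and coloured by log10(estimated fragments + 1). Home cage soma IP 2 holds about 1 fragment of Gria1, Grin2b and Grm5, and both home cage dendrite IP hold 0 of Gria3 and Grin2a.

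The number of fragments set how far each value could be read. Of 36 member values in dendrite immunoprecipitates, 14 rested on fewer than 5 estimated fragments and 10 were at 0. Of 36 in soma immunoprecipitates, 12 rested on fewer than 5 and 4 were at 0, while in the 2 dendrite supernatants 2 of 18 did. RNA was amplified before library construction, so a fragment is not a molecule. The 2 runs of a library did not always give the same level: of 46 values of at least 1 FPKM in both runs, 5 differed by more than 4 times. Grin1 in home cage soma 1 was 16.4 FPKM in the paired-end and 128.0 FPKM in the single-end run, and Grm5 in the fear conditioned dendrite supernatant was 4.97 and 59.0 FPKM.

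The next question was whether receptor transcripts on ribosomes differed after fear conditioning. In both layers the fear conditioned immunoprecipitates listed more genes above 0 than the home cage ones. Paired-end, soma had 9267 and 9211 such genes after fear conditioning against 5006 and 3220 in the home cage. Dendrites had 12205 and 6147 against 3344 and 4695. The part of this in the differences between these groups was not tested. In soma, Gria2, Gria3 and Grin2b were higher in both fear conditioned libraries than in either home cage library after scaling. Their log2 differences, fear conditioned minus home cage, were 3.38 ± 1.62 for Gria2, 2.71 ± 1.04 for Gria3 and 2.70 ± 1.22 for Grin2b (SE, 2 libraries each), with a limma adjusted p of 0.568 for each. Those 3 of the 7 tested members stand beside 33.4% of all genes tested that lay higher with no overlap, and 7.99% of genes and no member lay lower. The count of members depended on the values used: 6 of 9 lay higher with no overlap as deposited and 5 of 9 in the single-end run. The share of all genes was not computed for those values, so these counts cannot be set beside 33.4%. Gria1 differed by 1.56 ± 1.46, Grin2a by 0.95 ± 1.11, Grm5 by 1.73 ± 1.54 and Grin1 by -0.66 ± 1.52 (SE, limma adjusted p between 0.643 and 0.913). None of these passed. The median of the 7 was 1.73, beside 0.43 over all genes tested, or 1.21 over all genes without scaling, where Grin1 turned to 0.93.

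The home cage soma library 2 decided several of these values. Without it, Gria1 differed by -0.21, Grm5 by -0.71 and Grin2a by 0.14 between fear conditioned soma and the remaining home cage library, while Gria3 differed by 3.13, Gria2 by 1.65 and Grin2b by 1.70 (smallest limma adjusted p of a member 0.148). Over all genes 122 passed without that library and 0 with it; with it, 174 higher and 43 lower genes had an unadjusted limma p under 0.05 (5.94% and 1.47%).

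In dendrites Gria1 and Gria2 had negative estimates and the other 5 tested genes positive ones. The log2 difference, fear conditioned minus home cage, was -1.59 ± 1.46 for Gria1 and -1.18 ± 1.62 for Gria2, against 1.34 ± 1.52 for Grin1 and 1.05 ± 1.22 for Grin2b (SE, limma adjusted p = 1 for each). Gria3, Grin2a and Grm5 differed by 0.13, 0.08 and 0.34. None passed, no gene of the table did (57 higher and 39 lower genes, 1.95% and 1.33%, at an unadjusted limma p under 0.05), and 2 libraries against 2 cannot give an exact permutation p under 0.333. The Grin1 estimate rested on fear conditioned library 2: without it the difference was -0.06. The Gria2 estimate rested on home cage library 2, without which it was 0.02. After scaling, 4 of the 7 tested members were higher in both fear conditioned dendrite libraries with no overlap, beside 24.5% of all genes tested. They were Gria3, Grin2a, Grin2b and Grm5, and 3 of those 4 comparisons were against home cage values of 0 or about 1 fragment. Gria1 was lower with no overlap after scaling, beside 8.61% of all genes, and overlapped as deposited. As deposited 6 of 9 lay higher with no overlap in dendrites, and in the single-end run 3 of 9. For those values too the share of all genes was not computed.

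**Figure D4:**
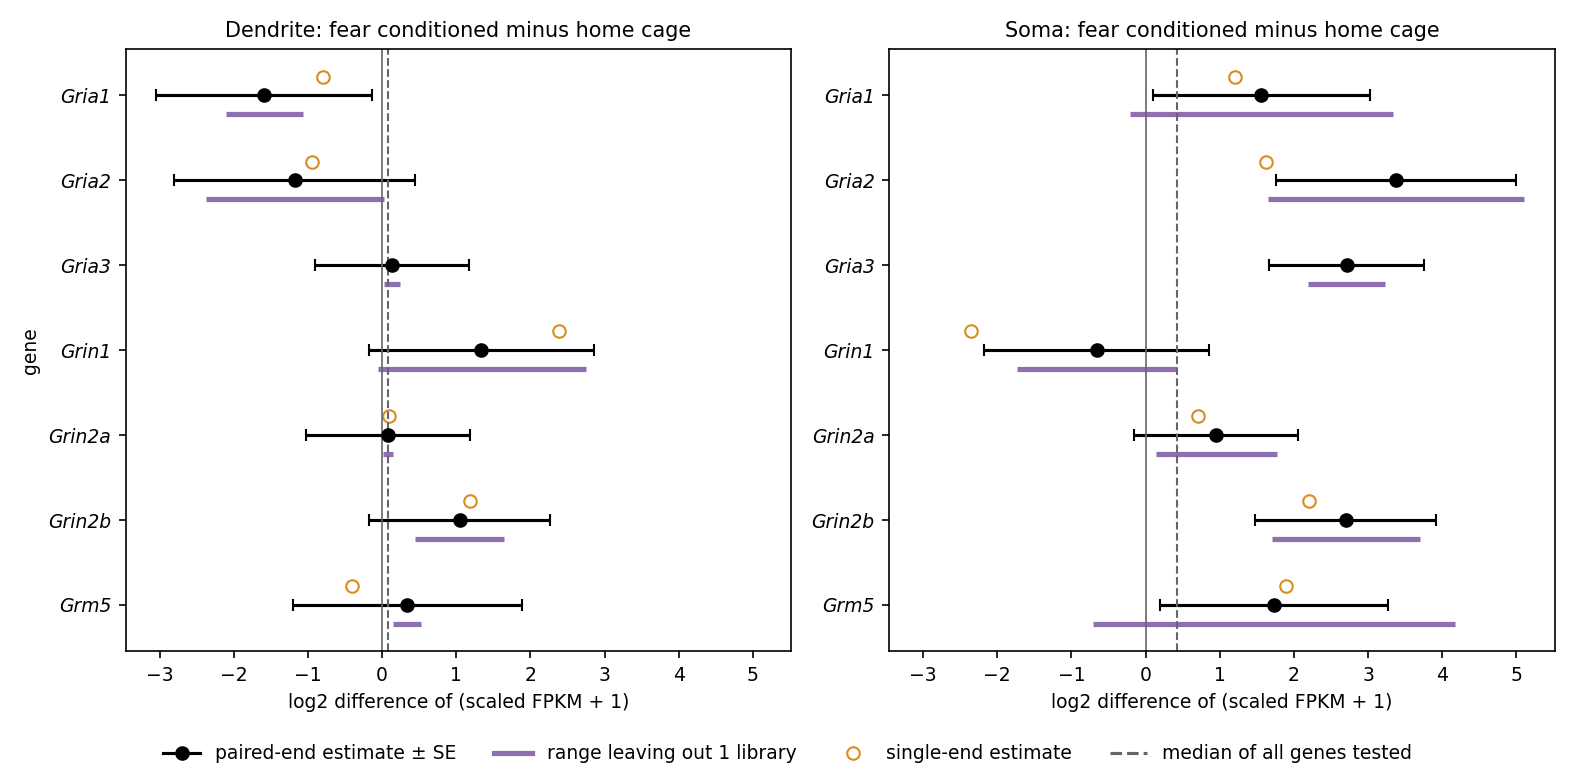
Log2 difference, fear conditioned minus home cage, of log2(scaled FPKM + 1) in dendrite (left) and soma (right) immunoprecipitates, with symbols as in the plot of dendrites minus soma. In soma 6 of 7 estimates are positive; the ranges of Gria1, Grin1 and Grm5 in soma, and of Gria2 and Grin1 in dendrites, cross 0 when 1 library is left out.

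The difference between those effects was tested directly as an interaction. Gria2 had the largest, with a fear conditioning difference lower in dendrites than in soma by 4.56 on the log2 scale (estimate -4.56 ± 2.29, SE, limma adjusted p = 0.716). Gria1 had -3.15 ± 2.06 and Gria3 -2.58 ± 1.48, and Grin1 ran the other way with 2.01 ± 2.15 (SE, limma adjusted p = 0.716 for each). No member and no gene passed, and 28 positive and 74 negative interactions had an unadjusted limma p under 0.05 (0.956% and 2.53%).

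Subunit make-up, as shares of FPKM, followed the same libraries. For these shares the second row of the locus was added, glur-1 to Gria1 and GluR alpha3 to Gria3. In home cage dendrites 2 the glur-1 row held 3.66 FPKM, which lowers the Gria2 share there. In the soma supernatant GluR alpha3 held 2.11 FPKM. Gria2 made up 56.7 and 37.9% of the summed FPKM of Gria1 to Gria4 in fear conditioned dendrites and 24.5 and 50.7% in home cage dendrites, against 70.3 and 58.8% in fear conditioned soma and 49.7 and 12.4% in home cage soma. In the supernatants its share was 39.7 and 29.5% in dendrites and 66.6% in soma. The sums behind these shares ran between 0.298 FPKM in home cage soma 2 and 108.0 FPKM in fear conditioned soma 1, so the shares of the lowest libraries rest on few fragments. Grin2b made up 80.4 and 99.7% of the summed FPKM of Grin2a and Grin2b in fear conditioned dendrites and 100% in home cage dendrites 1, against 65.8 and 68.8% in fear conditioned soma and 36.8 and 3.96% in home cage soma. In home cage dendrites 2 neither was read. Grin2b thus led in every dendrite immunoprecipitate with a value and in all 3 supernatants (69.8 and 73.9% in dendrites, 58.9% in soma), and Grin2a led in both home cage soma libraries. The ratio of Grin1 to the sum of Grin2a and Grin2b was 2.06, 6.01 and 11.6 in the dendrite immunoprecipitates with a value, against 0.293, 0.553, 3.16 and 4.8 in soma immunoprecipitates. The 11.6, in home cage dendrites 1, rests on a sum of only 0.122 FPKM, and that sum was 0 in its single-end run. Single-end, the ratio was 3.4 and 8.63 in fear conditioned dendrites, against 0.224 and 0.44 in fear conditioned soma. Home cage soma had 11.5 and 3.49, so the single-end ratios of dendrites and soma overlapped.

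**Figure D5:**
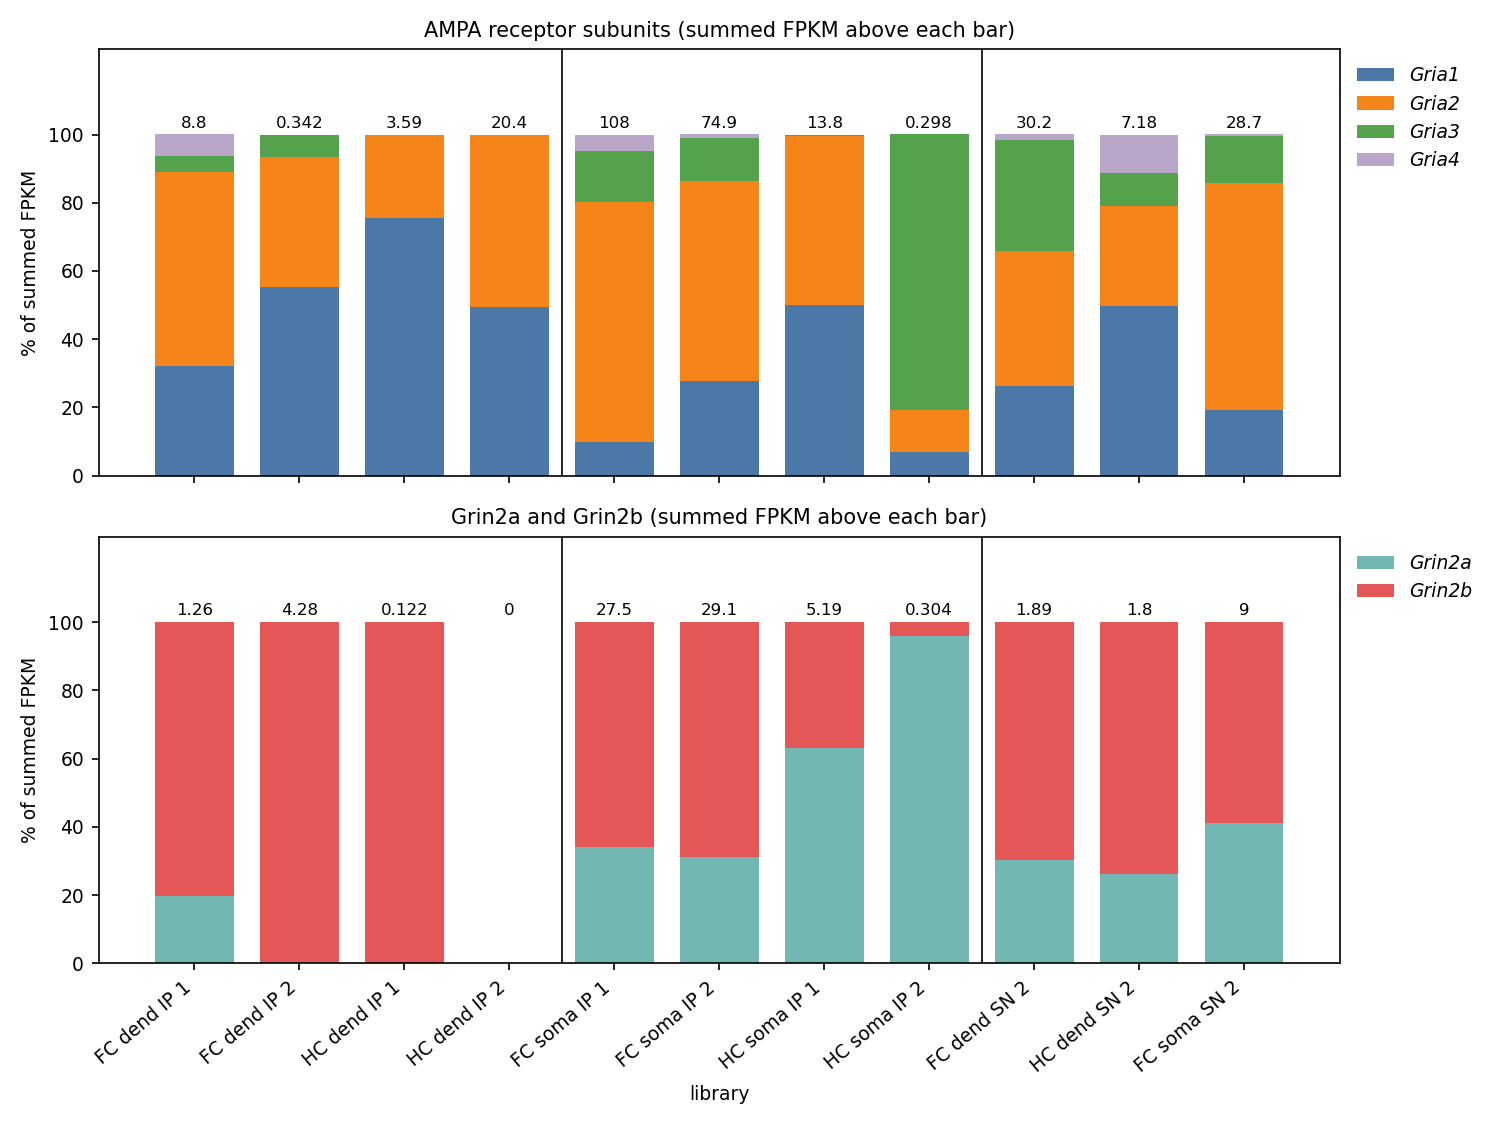
Shares of paired-end FPKM, as deposited, among the 4 AMPA subunit genes (top) and between Grin2a and Grin2b (bottom) in each library, with the summed FPKM above each bar. Gria1 and Gria3 include the second row of their locus. Grin2b takes most of the bar in dendrite IP and in supernatants; home cage dendrite IP 2 has no bar because both genes are at 0.

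Immunoprecipitates were then set against supernatants, which show what the dissected layer contained outside the pulled-down ribosomes. In dendrites Grin1 alone had a positive estimate, 0.63 ± 1.2 on the log2 scale, immunoprecipitate minus supernatant, and the other tested members lay between -1.77 for Gria3 and -0.38 for Grin2b (limma adjusted p = 1 for each). Of the 7 tested members, 3 were lower in all 4 dendrite immunoprecipitates than in both dendrite supernatants, beside 18.0% of all genes tested after scaling. They were Gria3, Grin2a and Grm5. Grik4, which was not tested, was lower too. In the single-end run 6 of 9 were, and the share of all genes in that run was not computed. Gria3, for example, reached 0.423 FPKM in the highest dendrite immunoprecipitate, against 9.8 and 0.695 FPKM in fear conditioned and home cage dendrite supernatants. Grm5 reached 1.07 FPKM in dendrite immunoprecipitates, against 4.97 and 2.21 FPKM in these supernatants. Grin2a reached 0.248 FPKM, against 0.573 and 0.471 FPKM. Of 2938 genes, 2 passed, both lower in the immunoprecipitates (0.0681%), and neither is a glutamate receptor gene; higher genes were 0.0%. At an unadjusted limma p under 0.05 there were 29 higher and 99 lower genes (0.987% and 3.37%), and 4.39% of genes but no member lay higher with no overlap. Astrocyte markers ran the same way, with all 11 tested genes lower in dendrite immunoprecipitates by a median of -1.04, and their part in the receptor values was not tested. In soma, with 1 supernatant, Grin1 had the largest estimate, 2.11 ± 1.61, and lay above the supernatant in 3 of 4 libraries as deposited; no member passed (limma adjusted p = 1). No gene did, with 4 higher and 24 lower at an unadjusted limma p under 0.05 (0.136% and 0.817%). With scaling, 1 of the 7 tested members, Grin1, lay above the supernatant in all 4 libraries, beside 5.51% of all genes tested higher and 17.4% lower.

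The supernatants give the location contrast in other RNA, with 2 dendrite libraries and 1 of soma. Gria2 had 12 and 2.12 FPKM in fear conditioned and home cage dendrite supernatants, against 19.1 FPKM in the soma supernatant. Grin2a had 0.573 and 0.471 FPKM in the dendrite supernatants against 3.7 FPKM in soma, and Grin2b had 1.32 and 1.33 FPKM against 5.3 FPKM. These 3 genes were lower in both dendrite supernatants in both runs as deposited, where the share of all genes was not computed. After scaling 5 of the 7 tested members were, beside 38.5% of all genes tested. No tested member was higher with no overlap, beside 33.0% of all genes tested. Grik4 and Grik5, which were not tested, were higher. Gria3 went the other way in the fear conditioned pair, with 9.8 FPKM in the dendrite and 1.86 FPKM in the soma supernatant. The log2 difference, dendrite minus soma, was -1.74 ± 1.23 for Grin2a, -1.10 ± 1.46 for Grin2b and -1.56 ± 2.11 for Gria2 (SE, limma adjusted p = 1). No gene passed, with 20 higher and 11 lower at an unadjusted limma p under 0.05 (0.681% and 0.374%). Grik4 was read in both dendrite supernatants, at 0.00824 and 0.0252 FPKM, or an estimated 0.956 and 2.89 fragments, and listed at 0 in soma.

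The rest of the 3′ UTR, the part beyond the first stretch joined to the coding sequence, gave a second readout of 7 genes. In the annotation Grin2a has no such part and Grik4 has 219 bases of it, so their 0 there says nothing. Gria2 had 0.765, 0.354, 0.38 and 1.15 FPKM in this part in dendrite immunoprecipitates, against 35.6 and 1380.0 FPKM in fear conditioned soma and 0.314 and 0.297 FPKM in home cage soma. Gria2 was therefore far higher in fear conditioned soma than in any other immunoprecipitate here too, but the 1380.0 FPKM stood against 42.1 FPKM in the single-end run of the same library. The Gria2 difference on this part was -3.35 (limma adjusted p = 0.615). Grin1 in this part had 4.92, 11.9, 4.8 and 2.16 FPKM in dendrites, against 2.9, 89.3 and 0.616 FPKM and a listed 0 in soma, and its difference was 0.29, the opposite sign to the coding part. Grin2b had 8.08 and 0.0214 FPKM in fear conditioned dendrites and a listed 0 and 2.33 FPKM in home cage dendrites, against 3.25 and 14 FPKM in fear conditioned soma and 32.6 and 0.524 FPKM in home cage soma. Home cage soma 1 was the highest library of Grin2b on this part, whereas fear conditioned soma was highest on the coding part. The 2 parts were then compared by library, with the second row of the locus added to both parts for Gria1 and Gria3. The 3′ part was above the coding part in 7 of 11 paired-end libraries for Gria1, Grin1 and Grin2b. It was above in 3 for Gria2 and Grm5, in 2 for Grik5 and in 1 for Gria3. The Gria1 count thus describes the locus and not the Gria1 row alone.

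The locus of Gria1 holds a second row in the tables, symbol glur-1, at chr11:57056248-57143746, and that of Gria3 holds GluR alpha3 at chrX:38973971-39031778. In the 3′ part the glur-1 row took most of the locus in some libraries. In fear conditioned soma 1 Gria1 had 1.49e-07 FPKM there and glur-1 21.7 FPKM, while in home cage soma 1 Gria1 had 78.9 FPKM and glur-1 5.98 FPKM. Summed over both rows, this part of the locus had 2.24 and 1.27 FPKM in fear conditioned dendrites and 0.169 and 0.0935 FPKM in home cage dendrites, against 21.7 and 17.1 FPKM in fear conditioned soma and 84.9 and 0.253 FPKM in home cage soma. All soma libraries but home cage 2 were above every dendrite library. On the coding part the paired-end glur-1 row was above 1 FPKM only in home cage dendrites 2, at 3.66 FPKM, and summing both rows moved the Gria1 difference between dendrites and soma to -1.08, with that of Gria3 still at -1.79.

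Of the other 17 glutamate receptor genes, 2 reached the expression minimum in the immunoprecipitates. Grm7, a presynaptic group III receptor, had a dendrite minus soma difference of -1.29, and Grik2, the main kainate subunit, of -0.77 (limma adjusted p of 0.65 and 0.66). Gria4, the AMPA subunit of interneurons, was listed at 0 in 5 of 8 immunoprecipitates and had its highest value, 5.04 FPKM, in fear conditioned soma 1. It thus resembled Gria3 in being highest after fear conditioning in soma.

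Genes that act with these receptors were taken as lists. Of 24 AMPA receptor auxiliary and trafficking genes, 23 had a row and 3 were tested, of which 0 passed and 1 was positive, with a median dendrite minus soma difference of -0.89. That one was Cnih2, which slows AMPA receptor gating in CA1, with 24.9 and 200 FPKM in fear conditioned and 4.01 and 86.1 FPKM in home cage dendrites, against 17.6 and 25.0 FPKM in fear conditioned soma and 1.46 and 0.0625 FPKM in home cage soma (log2 difference 2.22, limma adjusted p = 0.65). Nsf, which stabilises GluA2 at the membrane, differed by -0.89, Lrrtm1 by -1.33, and Nptx2 was not tested. Of 15 NMDA and kainate receptor partners 5 were tested and 0 passed, with a median of 0.78. Dlg4, the scaffold PSD-95, had 10.4 and 90.7 FPKM in fear conditioned and 26.4 and 38.6 FPKM in home cage dendrites, against 1.9 and 7.61 FPKM in fear conditioned soma and 0.216 and 0.206 FPKM in home cage soma, and differed by 3.21 (limma adjusted p = 0.65). Camk2a, the kinase that binds Grin2b's product, differed by 2.92, Dlg2 by 0.78 and Lin7c by -0.81. Camk2a and Dlg4 are known dendritic messages, and their estimates had the opposite sign to those of the 7 receptor genes in these libraries.

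Of 14 genes of group I metabotropic signalling 8 were tested, 5 of them positive, with a median of 0.09. Plcb1, the phospholipase downstream of mGluR5, differed by -2.28, Shank1, a postsynaptic scaffold, by 1.10, Itpr1 by 0.03 and Dgkz by 0.14 (limma adjusted p of 0.65 or more). Of 13 genes of glutamate synthesis, loading and uptake 6 were tested and 5 were positive, with a median of 1.81; these were led by the astrocyte genes Glul at 3.91, Slc1a2 at 2.99 and Slc1a3 at 1.83, with the vesicular transporter Slc17a7 at 0.00. No gene of these lists passed.

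The genes whose paired-end pattern over the 11 libraries was most like the mean of the 9 included Epha6 (Pearson's r 0.965), Plk2 (0.932), Usp5 (0.917) and Pclo (0.914). The mean pattern was highest in fear conditioned soma 1, at 1.01 standard units, then home cage soma 1 at 0.688 and fear conditioned soma 2 at 0.581, and lowest in home cage soma 2 at -0.69. These correlations describe 11 points that share libraries and depth. Plk2, for example, had 15.3 and 4.11 scaled FPKM in fear conditioned soma, 8.31 scaled FPKM in home cage soma 1 and 0 in home cage soma 2.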

How the data were processed

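Per the labels' protocols, cDNA came from the Nugen Ovation amplification kit, single-stranded ends were digested, and TruSeq DNA libraries were size-selected on gels. Tools named in the submitters' processing notes are Cufflinks 2.0.2, STAR 2.1.1d and CASAVA 1.9, with the mm9 build and no settings. The authors deposited FPKM for the CDS+ part and the rest of the 3′ UTR in a paired-end and a single-end table, per the file headers. FPKM keep no counts, so no counting interval was computed; depth was estimated from the spacing of low values of single-transcript genes of at least 1500 bases (87.2 to 95.1% of these within 0.15 reads of a whole number, a rule set after the values were seen), and fragments are FPKM times length times depth.

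Libraries were scaled by the median ratio to the geometric mean over 870 genes (8 immunoprecipitates) or 765 genes (11 libraries). limma 3.58.1 in R 4.3.3 fitted log2(scaled FPKM + 1) for genes with a mean of at least 1, with trended moderation, Benjamini-Hochberg adjustment over all genes tested and a two-sided threshold of 0.05; residual degrees of freedom were 4 and 6, and the second fit had behaviour as covariate. Marker sums and the likeness of patterns use the 11-library scaling. Main values are from paired-end runs; the single-end runs are an alternative. The fit was run on simulated data, where recovery of the changes put in was required at a small spread only. That does not show how well changes are found at the spread of these libraries. All 9 members are named; of each other list the 4 genes of highest mean (3 for other receptors) are named. Members and lists were chosen with earlier results of these data known. Sequences are from GENCODE vM21 transcripts. Same-numbered libraries are not stated to share an animal. Alternatives were other pseudocounts, minimums and scalings, the single-end table, the 3′ UTR part, robust moderation, a replicate block, single libraries left out and, added after seeing the data, rows of one locus summed. Frrs1l has no row. Some items are not reported here.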

Additional observations from a re-analysis of the deposited data

Results flagged for a closer look

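In 4 of 17 sets of 4 immunoprecipitates, 1 library lay far from the other 3. Its gap to the nearest over the whole range exceeded Dixon's 95% critical value. That value flags about 1 in 20 sets of normally distributed values. The values here are unlogged scaled FPKM, some of them 0, so that rate does not hold for them. Grin1 had 14 scaled FPKM in fear conditioned dendrite library 2, with the nearest of the other dendrite libraries at 1.31. Gria3 had 0.183 and Grin2a 0.107 scaled FPKM in fear conditioned dendrite library 1, with the nearest at 0.0125 and 0.00687, so both gaps lie below 1 scaled FPKM. That library also listed the most genes above 0 among the immunoprecipitates, 12205. Grik4 had 2.15e-05 scaled FPKM in fear conditioned soma library 1, with 0 in the others, which is less than 1 fragment.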

How the results depend on the processing

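Tests on the 7 members stayed on their side of the threshold and kept their sign in most settings; the values below are those that did not, as log2 differences unless called counts. Robust moderation, a pseudocount of 0.1, minimums of none or 5 and summing the rows of a locus reversed no member. Among counts of genes past the limma threshold, immunoprecipitate minus supernatant gave 1 in dendrites and 1 in soma with a pseudocount of 0.1, 1 in dendrites with a pseudocount of 5, and 1 and 1 with a minimum of 5. With no minimum these counts were 376 and 935, and 924 for dendrite minus soma supernatants. As deposited, without scaling, 1 gene passed for dendrite minus soma immunoprecipitates and 1 for fear conditioned minus home cage soma, and with sum scaling 1 passed for dendrite minus soma. The single-end table gave 1 for dendrite minus soma, 10 and 10 for immunoprecipitate minus supernatant in dendrites and soma, and 6 between supernatants. The rest of the 3′ UTR gave 1 for the interaction, 0 for immunoprecipitate minus supernatant in dendrites and 1 in soma.

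Fear conditioned minus home cage soma became 0.93 for Grin1 as deposited, and -2.33 for Gria1, -0.29 for Gria3, 2.66 for Grin1 and -2.03 for Grin2b in the rest of the 3′ UTR. In dendrites it became -0.40 for Grm5 single-end, and 0.32 for Gria1 and -0.56 for Grm5 in the rest of the 3′ UTR. The interaction there was 2.65 for Gria1, 0.40 for Gria3, -2.33 for Grin1 and 2.31 for Grin2b, and dendrite minus soma was 0.29 for Grin1. Immunoprecipitate minus supernatant in dendrites became 0.25 for Gria2 single-end, and 0.37 for Gria2 and 0.82 for Grm5 in the rest of the 3′ UTR. In soma it became 0.06 for Gria1 with a pseudocount of 5, 0.38 for Gria1 and 0.28 for Gria2 as deposited, -0.46 for Grin2a and -0.31 for Grin2b with sum scaling, 0.28 for Gria2, -0.72 for Gria3, -0.23 for Grin2b and -0.55 for Grm5 single-end, and 3.22 for Gria2 and -0.56 for Grin1 in the rest of the 3′ UTR. Between supernatants it became 0.30 for Gria1, 0.75 for Grin1 and 0.28 for Grm5 as deposited, -0.04 for Gria3 and 0.83 for Grm5 single-end, and -0.90 for Gria3 in the rest of the 3′ UTR. The cause of these shifts was not tested.

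Leaving out 1 library at a time, the counts ran between 0 and 96 for dendrite minus soma (96 without fear conditioned soma 1, 79 without home cage soma 2), 0 and 69 for fear conditioned minus home cage dendrites (69 without fear conditioned dendrite 1), 0 and 175 in soma, 0 and 95 for the interaction, and 0 and 2 for each contrast with supernatants. A lone library left in a group is assumed to vary like the others. In dendrites, fear conditioned minus home cage ran between -2.38 and 0.02 for Gria2 and -0.06 and 2.75 for Grin1. In soma it ran between -0.21 and 3.34 for Gria1, -1.73 and 0.41 for Grin1, and -0.71 and 4.17 for Grm5. The Grm5 interaction ran between -3.83 and 1.05, and Grm5 dendrite minus soma between -4.40 and -1.97. Immunoprecipitate minus supernatant in dendrites ran between -0.12 and 0.95 for Grin1 and -1.25 and 0.48 for Grin2b. In soma it ran between -0.61 and 0.38 for Gria1, -1.19 and 0.30 for Gria2, -0.06 and 0.37 for Grin2a, and -0.10 and 0.64 for Grin2b. Grin1 between supernatants ran between -0.48 and 0.11. Without the soma supernatant its contrasts have no value.

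Same-numbered immunoprecipitates did not deviate together (r between -0.0168 and 0.0562 over 2928 genes), which cannot show whether they share animals. The main fit did not pair them, and supernatants were not checked in this way. With a replicate block the counts were 1 for dendrite minus soma and 1 for immunoprecipitate minus supernatant in dendrites; Grin2a became -0.07 for immunoprecipitate minus supernatant in soma and Grin1 0.35 between supernatants. The block changed no other call or sign of a member.

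Depth limits the low values most: many dendrite values of Gria3, Grin2a, Grm5 and Grik4 rest on few fragments or none, so a low FPKM there shows only that the transcript was not detectable at this depth.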
